A study of Mus musculus with 11 samples.

Results

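The SLC25 family of mitochondrial solute carriers was examined in mouse liver. Its members were all genes measured by a probe set with 1 gene symbol in the platform annotation, that symbol being Slc25a followed by a number, except Slc25a20. The rule gave 32 genes, measured by 63 probe sets, of 12394 genes in all. Each gene is represented by its probe set with the highest mean over the 11 samples. The rule itself uses names and mean signal, not the difference between genotypes. RefSeq's table for GRCm38.p6 lists 47 genes with such a symbol. Of these, 14, among them the citrate carrier Slc25a1 and the glutathione carrier Slc25a40, are not analysed here, and neither is Slc25a20 as a member.

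Livers came from male C57BL/6J mice 15 to 20 weeks old, 5 wild type (WT) and 6 Gsr-null, harvested between 2 and 4 in the afternoon with no treatment. Gsr encodes glutathione reductase, the enzyme that returns oxidised glutathione to its reduced form. The labels call the samples biological replicates and do not say how the Gsr allele was made. Slc25a4, Slc25a15 and Slc25a42 lie on chromosome 8, as Gsr does. Each liver was hybridised to 1 Affymetrix array, and 5 and 6 arrays limit the precision of every value. In whole liver, fewer cells of a type and less RNA per cell cannot be told apart.

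As a check of the labels, the Gsr probe set had a mean log2 signal of 6.82 in WT and 4.99 in Gsr-null livers, and the groups did not overlap. All 6 measured hepatocyte markers passed the signal filter described below, and their mean lay between 13.1 and 13.7 on the log2 scale in every liver. The neutrophil, lymphocyte, cholangiocyte, adipocyte and muscle marker lists had 0 members above the filter, and 0 tested markers of any list were called between genotypes. Gsr-null sample 1 stood apart in the neutrophil markers S100a8 and S100a9, at 6.63 and 6.499 against at most 3.63 and 3.49 in the other livers. The stellate cell and fibroblast list had a mean of 4.87 to 5.03 in WT and 4.69 to 5.79 in Gsr-null livers. Its collagen Col1a2 differed by 0.89 (limma unadjusted p = 0.0108, adjusted p = 0.363), with 5 of 6 Gsr-null livers above every WT liver. Col3a1 differed by 0.87 (limma adjusted p = 0.736), but Gsr-null sample 6, at 5.83, lay below the WT range of 6.82 to 7.37. The only other tested marker of the list, Dcn, had its strongest signal and went the other way, at -0.10 (limma adjusted p = 0.968). The part of these cells in the members' values was not tested. Control probe sets at the 3' and 5' ends of Gapdh and Actb differed by 0.54 to 0.70 in a lower set of 2 WT and 3 Gsr-null livers and by 1.20 to 1.75 in a higher set of 3 and 3, so these sets cut across the genotypes.

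SLC25 proteins sit in the inner mitochondrial membrane, with a few in the outer membrane or in peroxisomes, and exchange metabolites that cannot cross it freely. Each is built from a repeated unit of paired membrane helices, and the nuclear genes are translated in the cytosol before import. In hepatocytes the family connects the cytosol with ATP synthesis, the urea cycle, gluconeogenesis, heme and iron-sulfur cluster assembly, and the mitochondrial pool of glutathione, which the matrix cannot make for itself.

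Promoter sequence, which the members' selection did not use, was compared with that of all genes, without a background matched for G and C content. RefSeq promoter windows of GRCm38.p6 matched 25 of the 32 genes, in 34 windows of 250 bases before a start site. The GC box, the sequence GGGCGG on either strand, lay in 27 of the 34 windows (79.4%), against 32.7% of 32851 windows of all genes. It was found in 20 of the 25 genes and was not found in the windows of Slc25a4, Slc25a10, Slc25a13, Slc25a38 and Slc25a47. TATAAA on either strand lay in 0 of the 34 windows and in 12.4% of all windows. The antioxidant response element core, TGANNNNGC on either strand, lay in 47.1% of the members' windows and 35.2% of all windows. Windows of the members had a median G and C content of 57.4%, against 52.4% for all windows, and 12 CpG dinucleotides against 6, and the GC box and CpG counts overlap with this content. Windows of 1 gene can share bases, and a match is only a run of letters. Printed below, on the strand of the gene, are the windows of the 2 members with the strongest signal, of the member with the smallest p and of the member with the largest negative difference, with GC boxes in capitals. They are Slc25a5 on chrX:36795347-36795596 (plus strand), Slc25a39 on chr11:102407518-102407767 (minus strand), Slc25a15 on chr8:22398622-22398871 (minus strand, the first of 2 start sites) and Slc25a47 on chr12:108850879-108851128 (plus strand).
Slc25a5: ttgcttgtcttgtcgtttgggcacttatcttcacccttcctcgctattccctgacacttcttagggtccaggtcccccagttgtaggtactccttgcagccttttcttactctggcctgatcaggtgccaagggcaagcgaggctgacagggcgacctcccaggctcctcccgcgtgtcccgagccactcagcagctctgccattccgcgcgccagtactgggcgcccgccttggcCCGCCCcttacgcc
Slc25a39: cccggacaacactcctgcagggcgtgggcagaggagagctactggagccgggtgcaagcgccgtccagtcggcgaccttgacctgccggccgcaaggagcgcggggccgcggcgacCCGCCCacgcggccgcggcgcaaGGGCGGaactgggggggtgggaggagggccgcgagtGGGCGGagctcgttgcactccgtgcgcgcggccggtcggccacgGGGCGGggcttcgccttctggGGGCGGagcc
Slc25a15: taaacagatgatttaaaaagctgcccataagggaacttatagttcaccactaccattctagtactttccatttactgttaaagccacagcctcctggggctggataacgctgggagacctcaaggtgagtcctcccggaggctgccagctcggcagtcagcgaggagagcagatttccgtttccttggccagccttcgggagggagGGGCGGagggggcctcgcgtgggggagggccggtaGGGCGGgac
Slc25a47: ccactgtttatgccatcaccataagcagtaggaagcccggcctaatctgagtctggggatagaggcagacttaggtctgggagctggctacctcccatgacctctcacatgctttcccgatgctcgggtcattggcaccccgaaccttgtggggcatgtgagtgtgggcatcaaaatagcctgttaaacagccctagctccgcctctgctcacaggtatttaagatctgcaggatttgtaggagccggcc
The Slc25a39 window held 5 GC boxes and 35 CpG dinucleotides. That of Slc25a47, a carrier known mainly from liver, held 0 and 6. The printed Slc25a15 window, the first listed, held 2 and 11. The other Slc25a15 window, not printed, held 5 and 43.

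Of the 32 members, 24 had a mean signal above log2 4, and the same 24 passed the filter of a log2 value above 4 in at least 5 samples. They are Slc25a3, Slc25a4, Slc25a5, Slc25a10, Slc25a11, Slc25a13, Slc25a15, Slc25a17, Slc25a22, Slc25a23, Slc25a25, Slc25a28, Slc25a30, Slc25a33, Slc25a36, Slc25a37, Slc25a38, Slc25a39, Slc25a42, Slc25a44, Slc25a45, Slc25a46, Slc25a47 and Slc25a51. The other 8, Slc25a2, Slc25a14, Slc25a24, Slc25a26, Slc25a29, Slc25a35, Slc25a48 and Slc25a53, were not tested. Signals of different probe sets do not rank the transcripts, because probes bind with different strength.

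**Figure D1:**
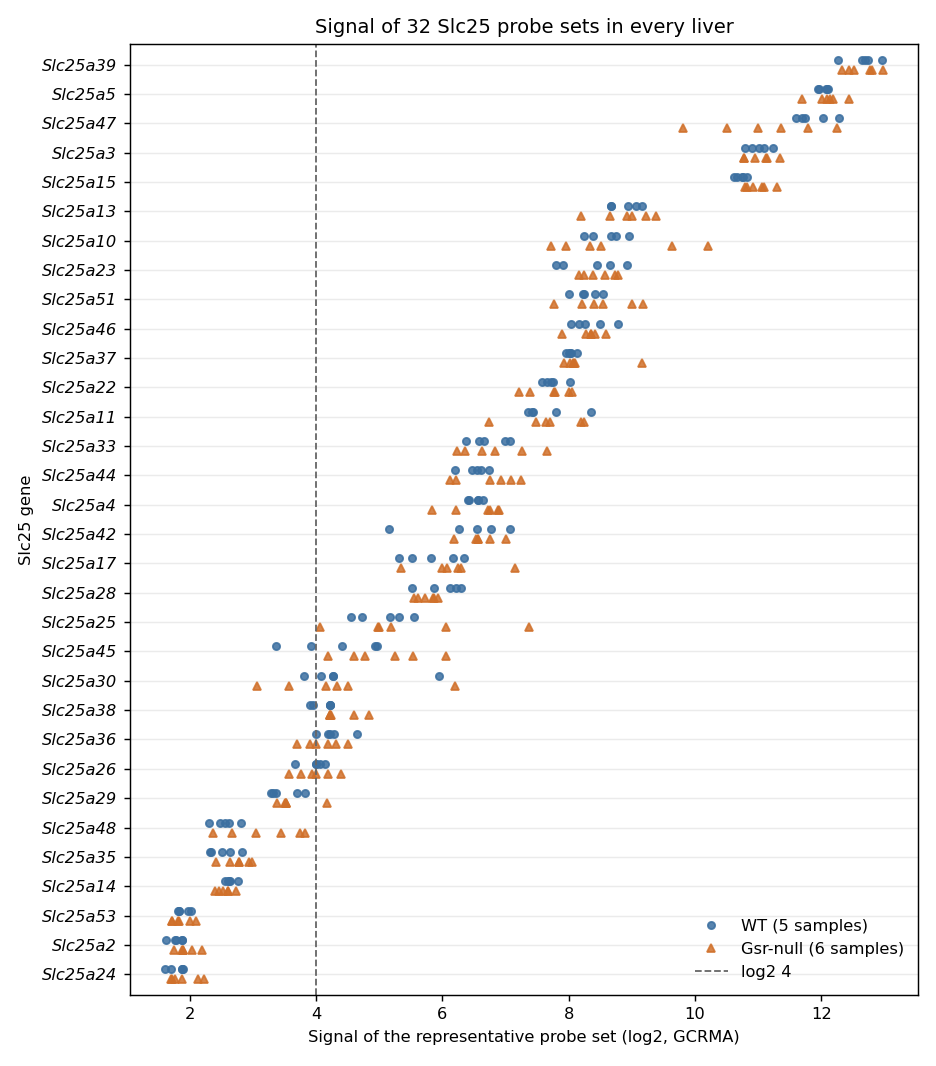
Log2 signal of the representative probe set (horizontal axis) of each of the 32 Slc25 genes (vertical axis, ordered by mean signal) in 5 WT livers (circles) and 6 Gsr-null livers (triangles). The dashed line marks log2 4, which the means of 24 genes exceed, and circles and triangles overlap for every gene.

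No SLC25 gene was called different between genotypes. With limma's moderated test and Benjamini-Hochberg adjustment over the 9560 tested probe sets, 0 of the 24 tested members passed an adjusted p of 0.05, and 37 of all tested probe sets did (0.387%). At an unadjusted p under 0.05 there was 1 member, Slc25a15, or 4.17%, and 8.36% of all tested probe sets. The plain test of the same values without moderation also called 0 members. In 0 of 24 members did the groups separate without overlap, which 1.36% of all tested probe sets did, so the family's counts lay near or under the background. The difference, Gsr-null minus WT, was positive in 15 members (62.5%) and negative in 9, against 43.3% positive over all tested probe sets. Its median was 0.07 on the log2 scale in the members and -0.03 over all tested probe sets.

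The size of change that these data leave room for differed from gene to gene. The 95% interval of the difference lay within -1 and 1 on the log2 scale, a 2-fold change either way, for 19 of the 24 members (79.2%) and for 88.7% of all tested probe sets. It reached beyond that for Slc25a10, Slc25a25, Slc25a30, Slc25a45 and Slc25a47. For 7 members, Slc25a3, Slc25a4, Slc25a5, Slc25a13, Slc25a22, Slc25a39 and Slc25a46, it lay within -0.5 and 0.5. A test that misses the threshold does not show that the genotypes are alike, and these intervals state what differences remain possible.

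**Figure D2:**
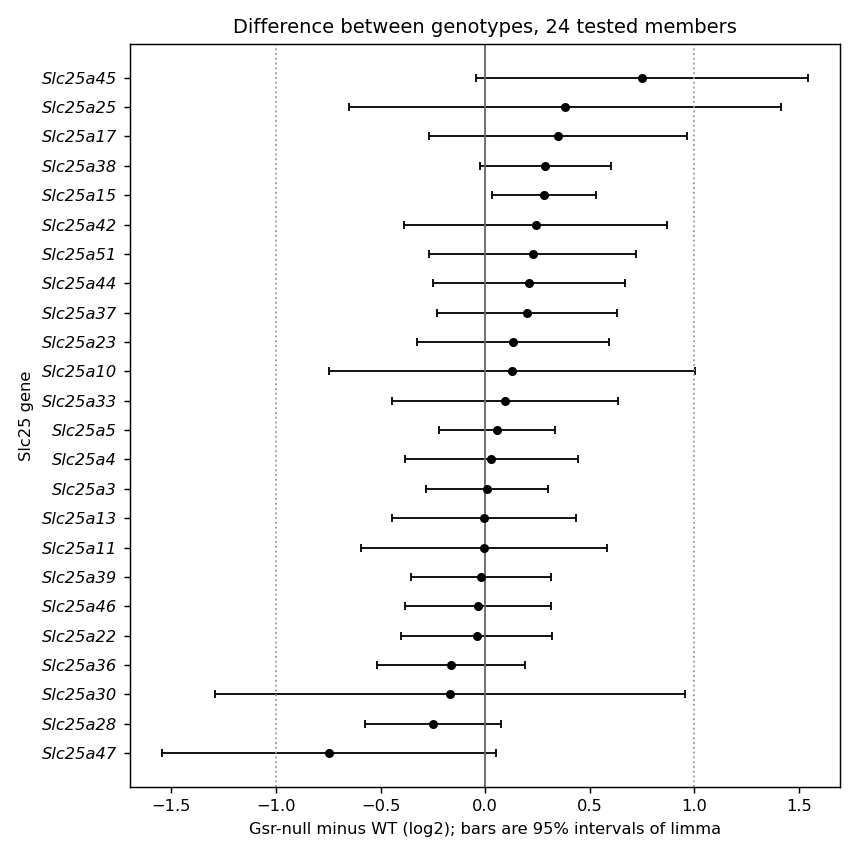
Difference between genotypes (horizontal axis, Gsr-null minus WT, log2) of the 24 tested Slc25 genes (vertical axis), as points with 95% intervals from limma. The solid line marks 0 and the dotted lines -1 and 1. The interval of Slc25a15 alone excludes 0, and those of 19 genes stay within the dotted lines.

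Among the carriers of amino acids, Slc25a15, which exchanges ornithine and citrulline for the urea cycle, had the smallest p of the family. Its signal was 10.75, 10.74, 10.61, 10.82 and 10.66 in WT samples 1 to 5 and 11.09, 11.29, 10.92, 10.79, 10.82 and 11.05 in Gsr-null samples 1 to 6, on the log2 scale. Samples 1, 2, 3 and 6 of the Gsr-null group lay above every WT liver, while 4 and 5 lay within the WT range. The means were 10.72 ± 0.083 (SD, n = 5) and 10.995 ± 0.19 (SD, n = 6), a difference of 0.28 (95% interval 0.03 to 0.53, limma adjusted p = 0.509). The difference did not pass the test over all probe sets. Its second probe set differed by 0.08 (SE 0.52), and its signal followed the 3' minus 5' difference described below.

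Slc25a13, the aspartate and glutamate exchanger citrin, works in the malate-aspartate shuttle and supplies aspartate to the urea cycle. It read 8.67, 9.15, 8.66, 9.07 and 8.93 in WT and 8.65, 9.22, 9.38, 8.996, 8.91 and 8.19 in Gsr-null livers. Gsr-null sample 6 was the lowest liver and sample 3 the highest, on either side of all WT values. The group means, 8.90 and 8.89 on the log2 scale, differed by -0.01 (95% interval -0.44 to 0.43, limma adjusted p = 0.999). The glutamate carrier Slc25a22 differed by -0.04 (95% interval -0.40 to 0.32), and Slc25a44, a carrier of branched-chain amino acids, by 0.21 (95% interval -0.25 to 0.67). The Slc25a44 difference was 0.10 without Gsr-null sample 3 and 0.33 without sample 6, and the range over left-out samples was -0.11 to 0.057 for Slc25a22.

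Slc25a38, which brings glycine into mitochondria for heme synthesis, was singled out after its values were seen. It sat just above the filter, at 3.95, 4.22, 4.21, 3.90 and 4.22 in WT and 4.24, 4.22, 4.84, 4.60, 4.22 and 4.22 in Gsr-null livers. The same value, 4.22, recurred exactly in 5 of the 11 livers of both genotypes. The highest livers were Gsr-null samples 3 and 4, and the difference was 0.29 (95% interval -0.03 to 0.60, limma adjusted p = 0.654). The erythroid marker Alas2 was highest in the same samples, with 10.29 and 9.66 on the log2 scale. The erythroid markers Slc4a1 and Hba-a1, below the filter, read 3.55 and 2.16 in Gsr-null sample 3 but 2.45 and 2.04 in sample 4. Slc4a1 was lowest of the Gsr-null group in sample 4, and Hba-a1 was highest in sample 2. The part of these markers in the Slc25a38 value was not tested.

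Carriers of adenine nucleotides and phosphate, which feed ATP synthesis, all had positive differences, and 0 of 5 were called. The differences ran from 0.01 for Slc25a3 to 0.38 for Slc25a25. Each of these signs reversed under some alternative processing or with a sample left out. Slc25a5, the main ADP and ATP exchanger of liver, read 11.95, 12.09, 11.97, 12.07 and 12.10 in WT and 12.09, 12.003, 12.18, 12.44, 12.13 and 11.70 in Gsr-null livers. The WT livers lay in a narrow band, which Gsr-null samples 3, 4 and 5 exceeded and sample 6 fell below. The difference was 0.06 (95% interval -0.22 to 0.33, limma adjusted p = 0.99). Slc25a4, the exchanger isoform of heart and muscle, differed by 0.03 (95% interval -0.38 to 0.44), with an SD of 0.10 in WT and 0.43 in Gsr-null livers. Without Gsr-null samples 2 and 3 its difference was 0.29 (limma unadjusted p = 0.0245, adjusted p = 0.591), and without sample 3 alone it was 0.17.

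The phosphate carrier Slc25a3 read 10.78, 11.01, 11.10, 10.91 and 11.23 in WT and 10.96, 11.12, 11.34, 11.14, 10.78 and 10.77 in Gsr-null livers. The groups overlapped almost completely, with a difference of 0.01 (95% interval -0.28 to 0.30, limma adjusted p = 0.999). The calcium-regulated carriers of ATP-Mg and phosphate differed by 0.13 for Slc25a23 (95% interval -0.33 to 0.59) and by 0.38 for Slc25a25 (95% interval -0.65 to 1.41).

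Slc25a25 was uneven among the Gsr-null livers and was singled out after its values were seen. WT livers read 4.55, 4.72, 5.17, 5.55 and 5.31, and Gsr-null livers 4.06, 7.38, 6.06, 4.97, 4.99 and 5.18. Gsr-null sample 2 stood highest and sample 1 lowest of all 11 livers. Without Gsr-null sample 2 the difference turned to -0.0055, and without samples 2 and 3, whose arrays had a higher floor (5th percentile 1.79 and 1.76, against 1.53 to 1.62 elsewhere), to -0.26. The part of that floor in the difference was not tested.

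Carriers of dicarboxylates move malate, succinate and 2-oxoglutarate, and 0 of 2 were called. Slc25a10, the dicarboxylate carrier, was once proposed to carry glutathione and was singled out after its values were seen. It read 8.39, 8.96, 8.75, 8.24 and 8.67 in WT and 7.71, 8.34, 8.51, 10.20, 9.63 and 7.96 in Gsr-null livers. Samples 4 and 5 exceeded every WT liver while 1 and 6 fell below them all, so the SD was 0.98 in Gsr-null against 0.29 in WT livers. The difference was 0.13 (95% interval -0.75 to 1.00, limma adjusted p = 0.997), and it turned to -0.17 without Gsr-null sample 4 and to -0.05 without sample 5. The second probe set was also highest in Gsr-null sample 4, at 8.27, but WT sample 2, at 7.96, exceeded Gsr-null sample 5, at 7.83. Slc25a11, the exchanger of 2-oxoglutarate and malate, differed by -0.01 (95% interval -0.60 to 0.58).

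Slc25a39, which imports glutathione into mitochondria, gave the strongest signal of the family. It read 12.64, 12.68, 12.74, 12.26 and 12.95 in WT and 12.43, 12.51, 12.78, 12.97, 12.80 and 12.32 in Gsr-null livers. The lowest liver was WT sample 4 and the highest Gsr-null sample 4, and the groups covered the same range. This probe set is of the _x_at type, whose probes can bind related transcripts. The means, 12.65 ± 0.25 (SD, n = 5) and 12.64 ± 0.25 (SD, n = 6), differed by -0.02 (95% interval -0.35 to 0.32, limma adjusted p = 0.999). Its other probe sets differed by 0.04 (95% interval -0.22 to 0.31) and 0.13 (95% interval -0.17 to 0.43). The sign of so small a difference was not settled, as it turned positive on the mean of the 3 probe sets.

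The mitoferrins carry iron into mitochondria, and 0 of 2 were called. Slc25a37, mitoferrin 1, the main form of red cell precursors, was singled out after its values were seen. It was nearly constant at 8.03, 8.13, 7.95, 8.002 and 8.02 in WT livers and at 8.02, 8.08, 9.15, 8.07, 8.10 and 7.92 in Gsr-null livers. Gsr-null sample 3 alone stood apart. The difference was 0.20 (95% interval -0.23 to 0.63, limma adjusted p = 0.936), and 0.014 without that liver. The erythroid marker Alas2, the first enzyme of erythroid heme synthesis, read 10.29 in Gsr-null sample 3 and 8.58 to 9.66 in the other 10 livers. Over the 3 of 5 listed erythroid markers measured here, the mean was 5.33 in that sample, 4.37 to 4.61 in WT and 4.40 or more in the other Gsr-null livers. Only Alas2 of these 3 passed the filter. Of those below it, Slc4a1 was also highest in sample 3 and Hba-a1 in sample 2, and their part in the Slc25a37 value was not tested. Slc25a28, mitoferrin 2, the form of other tissues, differed by -0.25 (95% interval -0.58 to 0.08, limma adjusted p = 0.77).

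**Figure D3:**
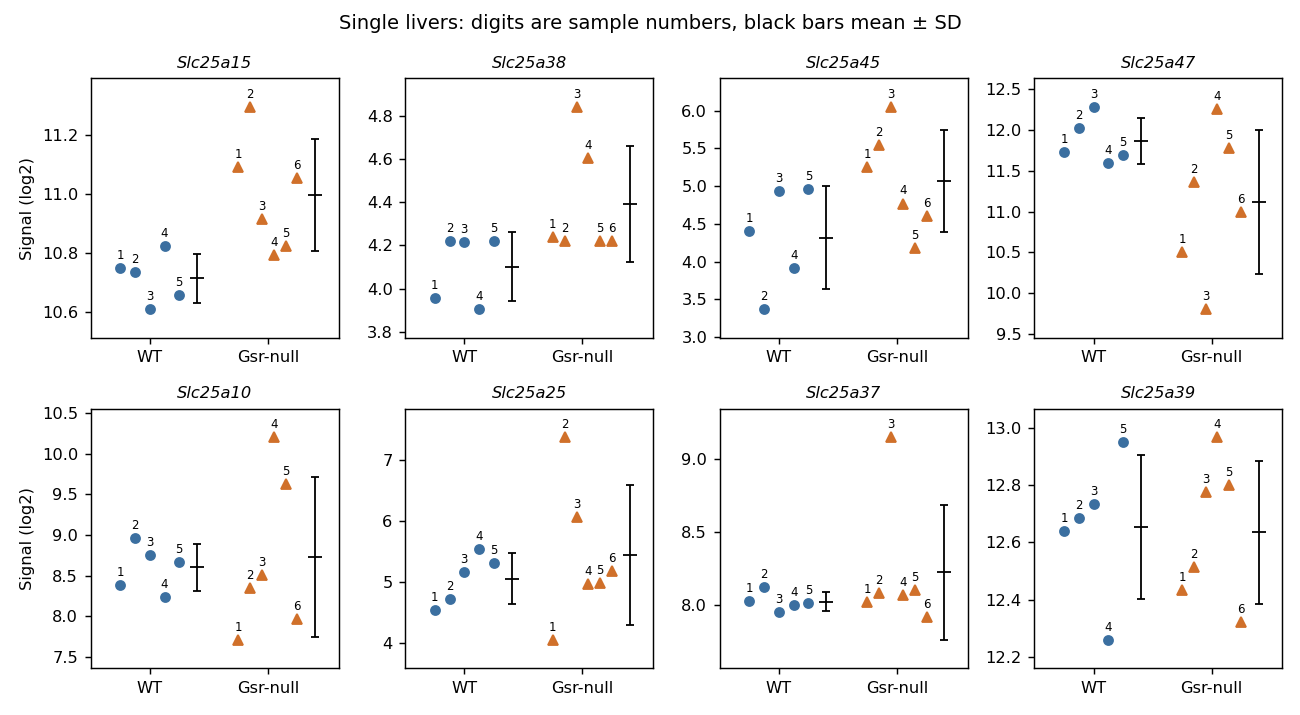
Log2 signal (vertical axes, each panel on its own scale) of 8 Slc25 genes in single livers, WT as circles and Gsr-null as triangles, with the sample number beside each point and mean ± SD as black bars. Slc25a37 is high in Gsr-null sample 3 alone, Slc25a10 in samples 4 and 5, and Slc25a47 is lowest in samples 3, 1 and 6.

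Of the carriers of other nucleotides and cofactors 0 of 5 were called and 4 had positive differences. Slc25a51, the importer of NAD, differed by 0.23 (95% interval -0.27 to 0.72), Slc25a42, which carries coenzyme A, by 0.24 (95% interval -0.39 to 0.87), and Slc25a17, a carrier of cofactors in the peroxisomal membrane, by 0.35 (95% interval -0.27 to 0.97). The pyrimidine nucleotide carriers Slc25a33 and Slc25a36 differed by 0.09 (95% interval -0.45 to 0.64) and -0.16 (95% interval -0.52 to 0.19). Single livers moved several of these values. Slc25a51 differed by 0.096 without Gsr-null sample 6 and by 0.38 without sample 3, and Slc25a17 by 0.16 without Gsr-null sample 3. Slc25a36 differed by -0.070 without WT sample 1 and by -0.084 without Gsr-null sample 3. Without WT sample 4, the lowest liver at 5.15, the difference of Slc25a42 turned to -0.06.

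Slc25a30, related in sequence to the uncoupling proteins, read 4.26, 4.07, 3.81, 4.26 and 5.95 in WT and 3.56, 4.15, 6.20, 4.50, 4.34 and 3.06 in Gsr-null livers. A single liver of each genotype, WT sample 5 and Gsr-null sample 3, stood well above the rest. With a difference of -0.17 (95% interval -1.29 to 0.95) this gene had the widest interval of the family.

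The largest differences were found in members without a substrate assigned here. Slc25a47, a carrier known mainly from liver, read 11.74, 12.02, 12.29, 11.59 and 11.69 in WT and 10.51, 11.36, 9.80, 12.25, 11.78 and 10.996 in Gsr-null livers. Samples 1, 2, 3 and 6 of the Gsr-null group lay below every WT liver, and samples 4 and 5 within the WT range. The means were 11.86 ± 0.28 (SD, n = 5) and 11.12 ± 0.88 (SD, n = 6), a difference of -0.75 (95% interval -1.55 to 0.05, limma adjusted p = 0.638). The value was -0.48 without Gsr-null sample 3. The probe set's identifier ends in _s_at, so it can bind related transcripts.

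Slc25a45, singled out after its values were seen, read 4.40, 3.37, 4.93, 3.92 and 4.96 in WT and 5.25, 5.54, 6.05, 4.77, 4.19 and 4.60 in Gsr-null livers. Gsr-null samples 1, 2 and 3 lay above every WT liver and WT sample 2 below all others. The difference was 0.75 (95% interval -0.04 to 1.54, limma adjusted p = 0.636), and it was 0.39 without Gsr-null samples 2 and 3. Slc25a46, a protein of the outer mitochondrial membrane that acts in membrane dynamics, differed by -0.04 (95% interval -0.38 to 0.31).

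The Gsr-null livers spread more widely than the WT livers for most members. The SD was larger in the Gsr-null group for 18 of 24 members (75.0%) and for 60.8% of all tested probe sets, and no test was made of that share. The median SD of the members was 0.27 in WT and 0.43 in Gsr-null livers, against 0.26 and 0.30 over all tested probe sets. Gsr-null sample 3 held the highest Gsr-null value for 11 members and sample 6 the lowest for 10. Sample 3 lay outside the WT range for 17 members, 13 of them above it, and for 48.3% of all tested probe sets. Sample 6 lay outside it for 15 members, 12 of them below it, and for 46.6% of all tested probe sets. In the other Gsr-null samples that share of all tested probe sets was 29.6% to 37.9%. How often samples 3 and 6 were highest, lowest, above or below over all tested probe sets was not counted. These counts are therefore not shown to be particular to the family. Sample 6 also had the fewest probe sets above log2 4, at 9094 against 9377 to 9603 in the others, and the part of this in the members' values was not tested.

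The 8 members below the filter had means between 1.85 and 3.97 on the log2 scale. Slc25a26, the importer of S-adenosylmethionine, came nearest to passing it, with 4 of 11 livers above log2 4 and a mean of 3.97 in both genotypes (SD 0.18 over 5 WT and 0.29 over 6 Gsr-null livers). Slc25a36, just inside with a mean of 4.17, and Slc25a26, just outside, thus differ little in signal. Slc25a29, a carrier of basic amino acids, read 3.28 to 3.83 in WT and 3.38 to 4.17 in Gsr-null livers. Slc25a48 read 2.30 to 2.81 in WT and 2.37 to 3.82 in Gsr-null livers, with 4 Gsr-null livers above the WT range. Slc25a2, an ornithine carrier, and Slc25a24, an ATP-Mg and phosphate carrier, averaged 1.87 and 1.85 over all samples. Slc25a14, Slc25a35 and Slc25a53 averaged 2.59, 2.65 and 1.88.

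Several genes were read by more than 1 tested probe set, which allows a check of each difference. In 8 genes there were 17 further tested probe sets. Of these, 13 shared the sign of their gene's representative and 4 the other way, and 0 passed the adjusted threshold. At an unadjusted p under 0.05 there was 1 of the 17, a probe set of Slc25a51. It read 6.01, 5.32, 6.21, 5.40 and 5.80 in WT and 5.76, 6.66, 6.12, 6.44, 6.72 and 6.52 in Gsr-null livers. Gsr-null samples 2, 4, 5 and 6 exceeded every WT liver, with a difference of 0.62 (95% interval 0.16 to 1.08, limma adjusted p = 0.386). The third probe set of Slc25a51 differed by -0.28 (95% interval -0.94 to 0.39), so the gene's probe sets did not share a sign.

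The 8 probe sets of Slc25a5 all passed the filter and had positive differences, from 0.06 to 0.23. Of these, 6 varied little, with an SD over the 11 livers between 0.14 and 0.26. The other 2 ranged from 8.84 to 12.02 and from 7.55 to 10.57 with SDs of 0.97 and 1.01. Both were lowest in Gsr-null sample 3 and highest in Gsr-null sample 6, while the representative probe set was lowest in sample 6. Both, and 4 of the 6 steadier ones with the representative among them, are of the _x_at type, whose probes can bind related transcripts.

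**Figure D4:**
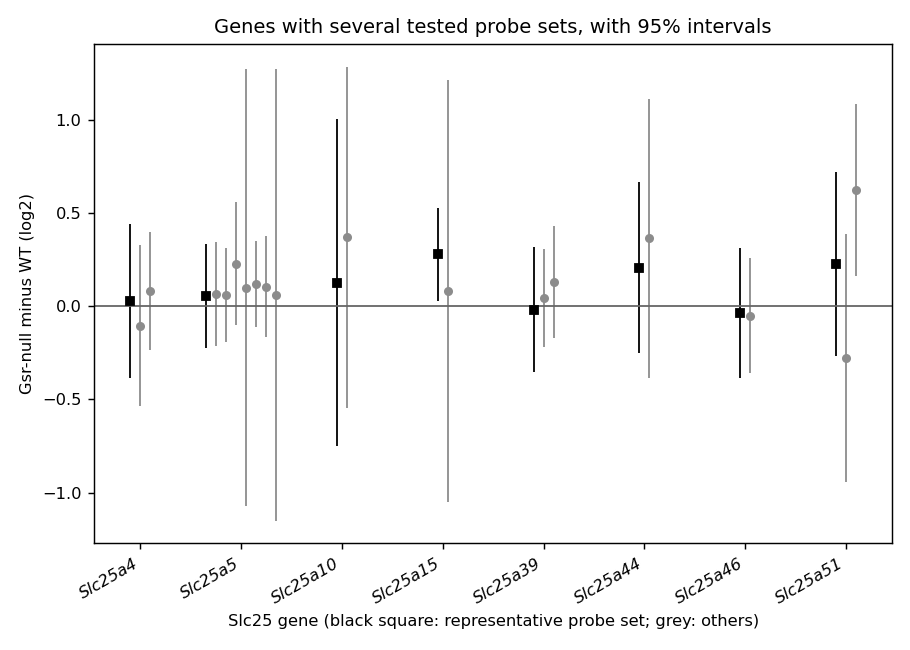
Difference between genotypes (vertical axis, Gsr-null minus WT, log2) with 95% intervals for every tested probe set of the 8 Slc25 genes (horizontal axis) that have several. Black squares are the representative probe sets and grey circles the others. Slc25a5 has 2 probe sets with much wider intervals than its other 6, and the probe sets of Slc25a51 lie on both sides of 0.

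Some probe sets followed the 3' minus 5' difference of the controls, which depends on RNA integrity and labelling. This comparison was made with the values known. With genotype in the model, limma called 609 of 9560 probe sets different between the sets of samples (6.37%), and 3 of the 41 tested probe sets of the members, of which 1 was representative. The sets did not overlap for 5.91% of all tested probe sets and for the same 3 of the members. The second probe set of Slc25a15 read 4.93 to 6.22 in the lower set, above the 3.70 to 4.17 of the higher one, a difference of -1.65 (SE 0.23, limma adjusted p = 0.00222). The second probe set of Slc25a44 differed by -1.03 (SE 0.19, limma adjusted p = 0.00872). The representative probe set of Slc25a23 was higher in the higher set by 0.60 (SE 0.12, limma adjusted p = 0.0157).

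Within the sets, Gsr-null minus WT differences rest on 2 WT and 3 Gsr-null livers in the lower set and on 3 and 3 in the higher, and they have no test. They had the same sign in both sets for 14 of the 24 members. Slc25a15 differed by 0.32 in the lower set and by 0.22 in the other. Slc25a38 differed by 0.37 and 0.22, and Slc25a47 by -1.25 and -0.23. Slc25a45 differed by 1.97 in the lower set but -0.25 in the other, and Slc25a10 by -0.41 and 0.66, so neither relation held in both sets. The pooled differences with the sets as a block were 0.26 for Slc25a15, -0.68 for Slc25a47, 0.74 for Slc25a45 and 0.19 for Slc25a10, with limma adjusted p between 0.419 and 0.949.

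**Figure D5:**
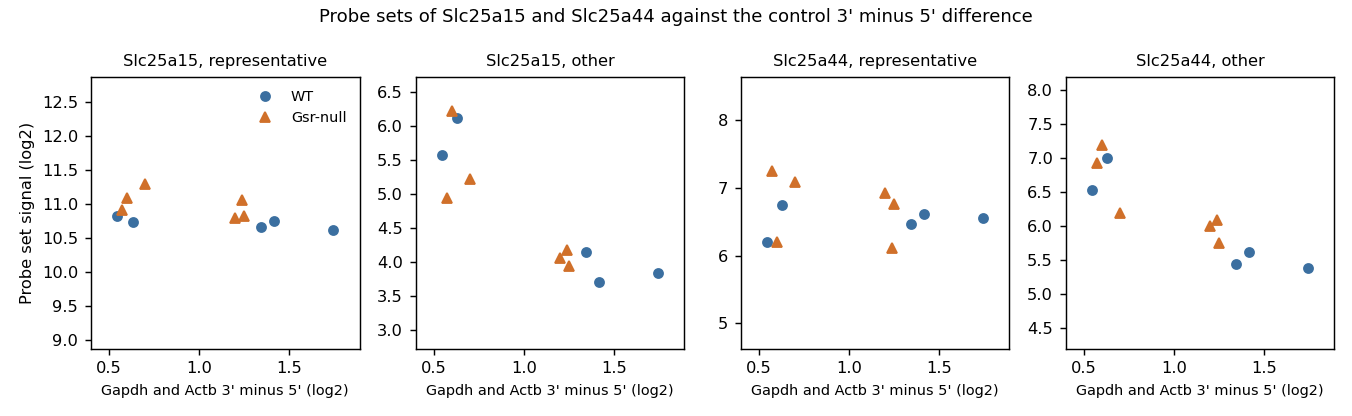
Log2 signal (vertical axes, each spanning 4 units) of the representative and the other tested probe set of Slc25a15 and Slc25a44 against the mean 3' minus 5' difference of control probe sets (horizontal axes, log2), WT as circles and Gsr-null as triangles. The second probe set of Slc25a15 is 4.93 or more in the 5 livers of the lower set and 4.17 or less in the 6 of the higher set, and the representative probe sets show no such gap.

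Enzymes and transporters that work with these carriers were read from lists, and 0 of 62 tested genes were called by limma or by the test without moderation, in either direction. At an unadjusted p under 0.05 there were also 0, against 8.36% of all tested probe sets. Their differences were positive in 33 and negative in 29, with a median of 0.02 on the log2 scale. Over all tested probe sets 43.3% were positive, so more negative than positive signs in a list is also the background. From each list the gene with the smallest p is given. In the list of the malate-aspartate shuttle and glutamate, 5 of 5 tested genes had positive differences, with the aspartate aminotransferase Got1 at 0.40 (SE 0.27). The smallest were those of Mdh2, at 0.01 (SE 0.14), and Glud1, at 0.03 (SE 0.12). The members Slc25a13, which works in this shuttle, and Slc25a11, which exchanges malate, are not in the list and each differed by -0.01. Among 13 genes of pyruvate, citrate and the TCA cycle the smallest p was that of pyruvate carboxylase, Pcx, at 0.24 (SE 0.20). Larger differences with larger errors there were those of Me1, at -0.67 (SE 0.81), and Acly, at 0.35 (SE 0.36). The urea cycle list, which uses the ornithine moved by Slc25a15, had 2 positive and 4 negative differences, with ornithine aminotransferase, Oat, at 0.17 (SE 0.22).

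Partners of adenine nucleotide and phosphate exchange had 8 of 9 negative differences, with the outer membrane channel Vdac1 at -0.19 (SE 0.12). Import of carrier proteins, the route by which SLC25 proteins reach the inner membrane, had 8 of 11 negative differences, with Timm29 at -0.23 (SE 0.12). Mitochondrial glutathione and peroxide removal had 7 of 8 positive differences, with the transhydrogenase Nnt at 0.55 (SE 0.28). Nnt read 9.14 to 10.71 in WT and 10.08 to 11.03 in Gsr-null livers, so the groups overlapped. Its probe set is of the _x_at type, whose probes can bind related transcripts. The signal is of RNA and not of enzyme activity. In iron-sulfur cluster and heme synthesis 4 of 7 were positive, with the cysteine desulfurase Nfs1 at 0.23 (SE 0.11). Larger differences with larger errors in that list were those of the heme enzymes Alas1, at -0.93 (SE 0.61), and Cpox, at 0.41 (SE 0.24). None of these genes passed the test.

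Of the family proteins that carry other symbols, and Slc25a20, which the rule leaves out, 0 of 3 tested were called. Mtch1 and Mtch2, of the outer membrane, differed by 0.08 each. The acylcarnitine carrier Slc25a20 read 10.96, 10.71, 10.82, 10.65 and 10.86 in WT and 10.08, 10.55, 10.58, 11.14, 10.94 and 10.43 in Gsr-null livers, with samples 4 and 5 again the highest of the Gsr-null group (difference -0.18, 95% interval -0.56 to 0.20, limma adjusted p = 0.933). The other tested probe set of Slc25a20 differed by -0.06 (95% interval -0.46 to 0.34). Of the 6 genes in this list, 5 had a probe set with their symbol alone. The uncoupling proteins among these 5, Ucp1 and Ucp3, lay below the filter, and no other was read from this list.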

How the data were processed

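Per the labels, total RNA of whole liver was hybridised to Affymetrix arrays. The deposited log2 values were made by the authors with GCRMA, per the submitters' processing notes. GCRMA corrects the background with probe sequence and summarises probes, so low signals are pulled towards a common floor. The platform annotation, which can be old, gives 1 gene symbol to 20380 of 22626 probe sets. Genes were named from it and matched to RefSeq by Entrez ID.

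Probe sets with a log2 value above 4 in at least 5 samples were kept (9560, 42.3%) and fitted by genotype with limma 3.58.1 in R 4.3.3 (lmFit, eBayes), with Benjamini-Hochberg adjustment over all of them. Confidence intervals are at 95%. In simulated data for this comparison over 9560 probe sets, 69% of planted changes of 1 on the log2 scale and 94% of changes of 2 were recovered. The simulation drew normal noise with the same SD in both genotypes and planted 100 changes of each size. The adjusted threshold depends on how many probe sets change, and 37 were called in the data. Recovery in the data can therefore be lower than in the simulation. The members had a median pooled SD of 0.36, against 0.29 over all tested probe sets, and recovery for the members alone was not measured. Values of each sample are given for members with an unadjusted p under 0.05 or groups that do not overlap, for the 6 with the highest mean and for Slc25a39, and others where stated. The members and lists were chosen with earlier results of these data known. Sample numbers are the rep numbers of the labels, which for the Gsr-null livers differ from the numbers in the labels' brackets. The rep numbers gave no sign of pairing, as the correlations of same-numbered deviations were -0.17, 0.036, -0.056, -0.24 and -0.17. So few correlations cannot exclude pairing, and the numbers in brackets were not checked. Plots used matplotlib 3.10.9 and sequence searches Python 3.11.15. Other filters, scalings, blocks and left-out samples were tried.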

Additional observations from a re-analysis of the deposited data

Results flagged for a closer look

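The members' WT and Gsr-null values made 48 groups of samples. In each, the gap from the highest or lowest sample to the next was divided by the range of the whole group. By this measure 2 samples stood apart where chance gives about 2.4. Slc25a37 read 9.15 in Gsr-null sample 3 and 7.92 to 8.10 in the other Gsr-null livers. Slc25a30 read 5.95 in WT sample 5 and 3.81 to 4.26 in the other WT livers.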

How the results depend on the processing

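No SLC25 member and no gene of the connected pathways was called under any of the 22 alternatives. Of 519 member values under them, 456 kept their direction and 63 reversed. The direction of 9 of the 24 members never changed. Of all probe sets, 37 were called at first, 14 with a filter at log2 6, 10 by the plain test, 7 without Gsr-null samples 2 and 3, and 14 to 37 with each sample left out in turn. The count was 49 with array weights, 46 with quantile normalization, 46 with the 3' minus 5' sets as a block and 44 with median centring. With the replicate number as a block, which the check of pairing did not bear out, 3 were called. That block leaves out Gsr-null sample 6, and the cause of the lower count was otherwise not tested. The blocked differences reversed for Slc25a4 (-0.0047), Slc25a11 (0.18), Slc25a13 (0.13), Slc25a22 (0.023), Slc25a30 (0.079), Slc25a39 (0.044) and Slc25a46 (0.050).

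The other reversed differences had no tested cause. Median centring gave 0.029 for Slc25a11, 0.030 for Slc25a13, 0.017 for Slc25a39 and 0.00076 for Slc25a46. Quantile normalization gave -0.0064 for Slc25a3, 0.0040 for Slc25a11 and 0.0041 for Slc25a13. Array weights gave -0.035 for Slc25a3, 0.059 for Slc25a11, 0.10 for Slc25a13, -0.042 for Slc25a33 and 0.067 for Slc25a46. Without Gsr-null samples 2 and 3, Slc25a3 differed by -0.096, Slc25a25 by -0.26, Slc25a33 by -0.22 and Slc25a44 by -0.015. Slc25a39 differed by 0.0014 with the 3' minus 5' sets as a block and by 0.052 on the mean of its probe sets. With each sample left out in turn, the members that reversed ranged as follows: Slc25a3 (-0.054 to 0.067), Slc25a4 (-0.040 to 0.17), Slc25a5 (-0.015 to 0.13), Slc25a10 (-0.17 to 0.33), Slc25a11 (-0.12 to 0.18), Slc25a13 (-0.10 to 0.13), Slc25a22 (-0.11 to 0.057), Slc25a23 (-0.0038 to 0.27), Slc25a25 (-0.0055 to 0.66), Slc25a30 (-0.55 to 0.20), Slc25a33 (-0.071 to 0.21), Slc25a39 (-0.12 to 0.055), Slc25a42 (-0.061 to 0.42) and Slc25a46 (-0.11 to 0.074). The adjusted p of Slc25a15 ranged from 0.348 to 0.975 over its alternatives. Signal near the floor limits the 8 members that were not tested.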

Other observations

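Some members were highest or lowest among the Gsr-null livers where genes outside the family, chosen after their values were seen, were highest. Lcn2, an acute-phase protein that binds iron siderophores, read 3.53 to 5.79 in WT livers. It read 13.03, 8.25, 10.27, 5.90, 7.50 and 12.58 in Gsr-null samples 1 to 6. Its 3 highest livers, samples 1, 3 and 6, were the 3 with the lowest Slc25a47. Vnn1, a pantetheinase, read 8.84 to 10.05 in WT livers and 3.15, 4.12, 4.17, 10.55, 9.60 and 4.26 in Gsr-null samples 1 to 6. Sample 5 lay within the WT range and sample 4 above it, and Slc25a10 was highest in these samples. The other Gsr-null livers lay below every WT liver for Vnn1. Neither relation was tested.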
